A study of Mus musculus with 2 samples.

Results

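The collagen chain genes were followed across the cells of the mouse colon. They were taken as every gene of the deposited gene tables whose symbol reads Col, a type number, the letter a and a chain number. This gave 44 genes of the 31053 listed, the same ones for both libraries: 11 fibrillar chains, 6 basement membrane chains, 6 type VI chains and 21 other chains. The colons came from C57BL/6 mice of wild-type genotype. One library was from THC-treated mice (Δ9-tetrahydrocannabinol, the cannabis compound that acts on the brain, at 10 mg/kg), and it was set against one from vehicle-treated mice. Both colons were treated alike: EDTA to loosen the epithelium, then collagenase D, DNAse and Dispase, a Percoll gradient, and the droplet-based 5' kit of 10x Genomics. Collagenase cuts collagen protein, while the values below are RNA. How many mice were pooled, their age and sex, what the vehicle was and when doses were given is not stated in the labels.

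Collagens are trimers whose chains wind around each other into a helix, which needs a glycine at the start of every repeat unit of the chain. Fibrillar collagens (types I, III and V) form the cables of connective tissue, type IV forms the sheet-like mesh of basement membranes, and type VI forms beaded filaments between both. In the gut wall, fibroblasts of the mucosa and of the outer layers, smooth muscle and endothelium are the known sources of these chains. Chains of a type are made in the same cell and must assemble there before secretion.

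After filtering, 395 THC cells and 628 vehicle cells remained, each with 1000 or more unique molecular identifiers (UMIs, each standing for a captured RNA molecule), 200 or more genes and under 10% mitochondrial UMIs. No barcode was shared between the kept cells. A median cell held 8529 UMIs in the THC library and 7101.5 in the vehicle library. Cell groups are called "X-like" because they were named here from marker genes, with no collagen gene among the markers or among the genes used for clustering. There were 93 fibroblast-like THC cells and 156 fibroblast-like vehicle cells. All 6 general fibroblast markers (Pdgfra, Dpt, Dcn, Cygb, Fbln1 and Clec3b) were present in both, at a summed 13673 and 14412 CPM. CPM are the UMIs of a gene, scaled to a fixed total of UMIs so that libraries can be compared. Mesothelial-like cells, 5 and 2, held 17648 and 16273 CPM of this list, so the sum does not set fibroblast-like cells apart from them. The subsets were adventitial (25 THC and 51 vehicle cells), lamina propria (48 and 80), subepithelial PDGFRA-high (13 and 20) and a remaining group of 7 and 5 cells led by Ces1d, Fibin and Smoc2. The subset names rest on marker lists: 5 of the 7 adventitial markers and all 8 subepithelial markers passed in the group they name. The adventitial cells also passed 3 of the 6 lamina propria markers and the subepithelial cells 2 of them. The lamina propria group joins 2 clusters whose best list was the general fibroblast one. Of the lamina propria markers, 5 passed in the larger cluster and 3 in the other, a cluster of 5 THC and 14 vehicle cells led by Tnfsf13b, Ctgf and C4b that also passed 2 adventitial markers. The larger cluster also passed 1 adventitial and 1 subepithelial marker. With 1 library per treatment there are no replicates and no test. Intervals are exact 95% intervals that cover counting error only, neither the spread between mice nor that between cells. Since a 5' UMI counts molecules and not fragments, levels of different genes are given without a correction for length. How well long and short transcripts were captured was not measured, so comparisons and ratios between genes can carry such a difference.

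The 44 chains gave 14388 UMIs in the THC cells and 23038 in the vehicle cells. Of the chains, 24 reached 50 UMIs over both libraries and are described one by one, 17 had 1 to 49 UMIs and 148 UMIs in all, and 3 had none: Col2a1, Col10a1 and Col11a1, all known from cartilage, named after their counts were seen. Col8a2, with 50 UMIs, is the lowest chain described, and the highest one below that limit had 37. Col3a1, Col1a1 and Col1a2 together made up 57.5% of all collagen UMIs. Fibrillar chains held 61.6% of the collagen UMIs of the THC cells and 64.4% of those of the vehicle cells, type VI chains 19.5% and 18%, basement membrane chains 10.0% and 8.55%, and the other chains 8.81% and 9.01%.

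Collagen RNA was concentrated in the fibroblast-like cells. Fibroblast-like cells made up 23.5% of THC cells and 24.8% of vehicle cells, and held 80.2% and 86.3% of the collagen UMIs. Smooth muscle-like cells, 10.4% and 8.76% of the cells, held 12.8% and 8.67%. As a background, B cell-like, T cell- and innate lymphoid-like and plasma cell-like cells together held 1 collagen UMI among 331004 in 70 THC cells and 3 among 562062 in 120 vehicle cells, at medians of 3379.5 and 3330 UMIs per cell. Over all 44 genes this is 3.02 CPM and 5.34 CPM. Some other cells held more: a single macrophage-like vehicle cell held 53 of the 61 collagen UMIs of its group, and a single vehicle cell 184 of the 323 UMIs of the epithelial-like, goblet-like and unnamed cells, against at most 4 and 17 UMIs in a THC cell of these groups. Free RNA was visible only in the THC file, which keeps empty barcodes: the 105817 barcodes with 1 to 100 UMIs carried 550 CPM of collagen, of which Col3a1 was 125 CPM.

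The share of UMIs from collagen genes ordered the cell groups in the same way in both libraries from adventitial through lamina propria to subepithelial fibroblasts and then smooth muscle. In adventitial fibroblasts it was 2.06% (1.99 to 2.13) in the THC library and 2.14% (2.10 to 2.19) in the vehicle library. In lamina propria fibroblasts it was 1.56% (1.52 to 1.60) and 1.62% (1.59 to 1.65), and in subepithelial fibroblasts 1.43% (1.36 to 1.5) and 1.36% (1.30 to 1.43). The small remaining fibroblast group stood at 1.93% in THC cells and 1.47% in vehicle cells, a gap that rests on 7 and 5 cells. Outside the fibroblasts the shares were lower: 0.539% and 0.491% in mesothelial-like cells (5 and 2 cells), 0.332% and 0.311% in smooth muscle-like cells, 0.232% and 0.244% in interstitial cell of Cajal-like cells, 0.198% and 0.241% in blood endothelial-like cells, 0.113% and 0.150% in pericyte-like cells and 0.128% and 0.129% in lymphatic endothelial-like cells. Goblet-like cells held 0.00528% and 0.00578%.

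**Figure D1:**
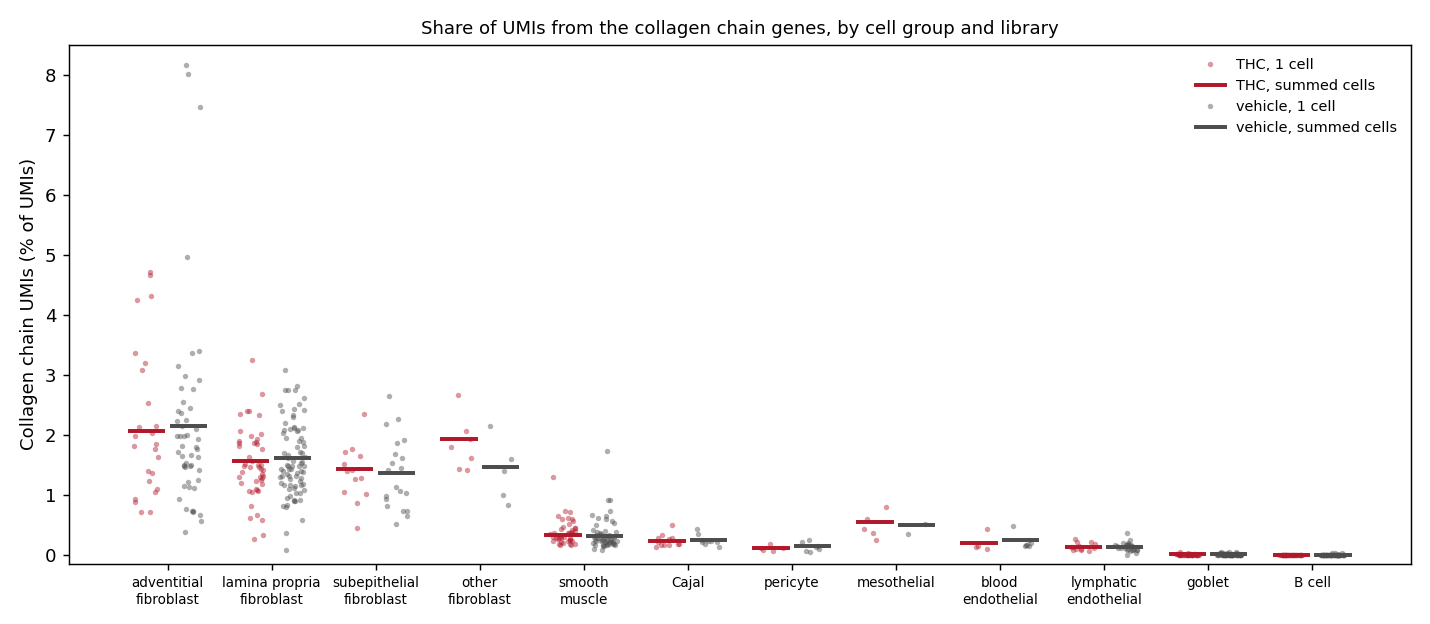
Share of a cell's UMIs that come from the 44 collagen chain genes (vertical axis, percent) for each cell of the THC (red) and vehicle (grey) library, by cell group; thick lines are the share over the summed cells of a group. Fibroblast groups sit between 1.36% and 2.14%, smooth muscle-like cells near 0.3%, and B cell-like cells at or near 0, with the widest spread among adventitial fibroblasts.

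Single cells of a group covered a wide range in both libraries, counting error of single cells included. Adventitial fibroblasts ranged from 0.713% to 4.72% in the THC library (median 1.85%) and from 0.378% to 8.15% in the vehicle library (median 1.79%). Lamina propria fibroblasts ranged from 0.258% to 3.24% (median 1.47%) in the THC library and from 0.0796% to 3.08% (median 1.48%) in the vehicle library. Smooth muscle-like cells fell into 2 clusters with different shares. The cluster led by Hhip held 0.542% in its 15 THC cells and 0.568% in its 20 vehicle cells, and the contractile cluster led by Actg2 and Des held 0.285% in 26 THC cells and 0.233% in 35 vehicle cells.

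The fibrillar chains carry the longest unbroken glycine repeats of the family, and the 3 below are shown because they make up most of the collagen RNA of these cells, with Col4a1 beside them as a chain of another build. In the GENCODE M21 coding sequences, the longest run of Gly-X-Y codon units was between 216 and 344 units in the 11 fibrillar chains (median 338). It was between 39 and 66 units in the 6 basement membrane chains, which hold between 22 and 27 separate runs of 5 or more units, and between 37 and 87 units in the type VI chains. Stretches of 36 codons from inside the helix region follow, 5′ to 3′, with glycine codons (GGN) in capitals. They are taken from GENCODE M21 on GRCm38: Col1a1 codons 675 to 710 (gene at chr11:94936224-94953042, + strand), Col1a2 codons 604 to 639 (chr6:4504814-4541544, + strand), Col3a1 codons 680 to 715 (chr1:45311538-45349706, + strand) and Col4a1 codons 1335 to 1370 (chr8:11198423-11312826, − strand).
Col1a1: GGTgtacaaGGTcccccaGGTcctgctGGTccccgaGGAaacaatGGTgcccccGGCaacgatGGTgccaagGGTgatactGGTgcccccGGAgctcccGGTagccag
Col1a2: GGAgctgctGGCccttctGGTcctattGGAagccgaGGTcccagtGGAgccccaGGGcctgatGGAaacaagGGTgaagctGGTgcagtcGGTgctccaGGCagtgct
Col3a1: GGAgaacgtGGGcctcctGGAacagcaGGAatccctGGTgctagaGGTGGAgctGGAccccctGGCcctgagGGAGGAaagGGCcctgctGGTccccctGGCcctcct
Col4a1: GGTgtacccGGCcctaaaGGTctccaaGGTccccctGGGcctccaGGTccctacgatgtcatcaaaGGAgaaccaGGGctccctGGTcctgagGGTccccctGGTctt
In the fibrillar chains every unit of the stretch opens with a glycine codon. In the Col4a1 stretch, which holds 11 glycine codons against 12 in Col1a1 and Col1a2, the repeat is interrupted, as is known of type IV chains.

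Among the fibrillar chains, Col1a1 and Col1a2, the partners of type I collagen, were highest in adventitial fibroblasts. Col1a1 stood there at 5730 CPM in THC cells and 5263 CPM in vehicle cells, against 2270 and 2615 CPM in lamina propria and 1889 and 1664 CPM in subepithelial fibroblasts. Col1a2 followed the same order with 3912 and 3624 CPM in adventitial, 2196 and 2130 CPM in lamina propria and 2066 and 1712 CPM in subepithelial fibroblasts. Col3a1, the only chain of type III collagen, stood at 4547 CPM in THC and 4886 CPM in vehicle lamina propria fibroblasts. It stood at 5017 and 5881 CPM in adventitial and 2777 and 3016 CPM in subepithelial fibroblasts. Col3a1 was the most abundant collagen RNA of these subsets in both libraries, apart from THC adventitial fibroblasts, where Col1a1 was higher. Smooth muscle-like cells held 686 and 632 CPM of Col3a1, 371 and 307 CPM of Col1a1 and 259 and 293 CPM of Col1a2.

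The type V chains, which form mixed fibrils with type I and limit fibril width, were lower. Col5a1 stood at 436 and 445 CPM in adventitial, 391 and 422 CPM in lamina propria and 393 and 368 CPM in subepithelial fibroblasts of the THC and vehicle libraries, and at 59.4 and 48.2 CPM in smooth muscle-like cells. Col5a2 stood at 381 and 479 CPM in adventitial, 380 and 425 CPM in lamina propria and 346 and 224 CPM in subepithelial fibroblasts, and 113 and 117 CPM in smooth muscle-like cells. Col5a3 was higher in adventitial (154 and 149 CPM) than in lamina propria fibroblasts (79.2 and 86.1 CPM), and reached 349 and 149 CPM in the small remaining fibroblast group, from 17 and 6 UMIs. Col27a1, a fibrillar chain known from cartilage, went the other way. It held 30 THC and 74 vehicle UMIs in lamina propria fibroblasts (81.9 and 127 CPM), 13 and 13 UMIs in subepithelial fibroblasts (122 and 104 CPM) and 5 and 6 UMIs in adventitial fibroblasts (30.7 and 15.7 CPM).

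**Figure D2:**
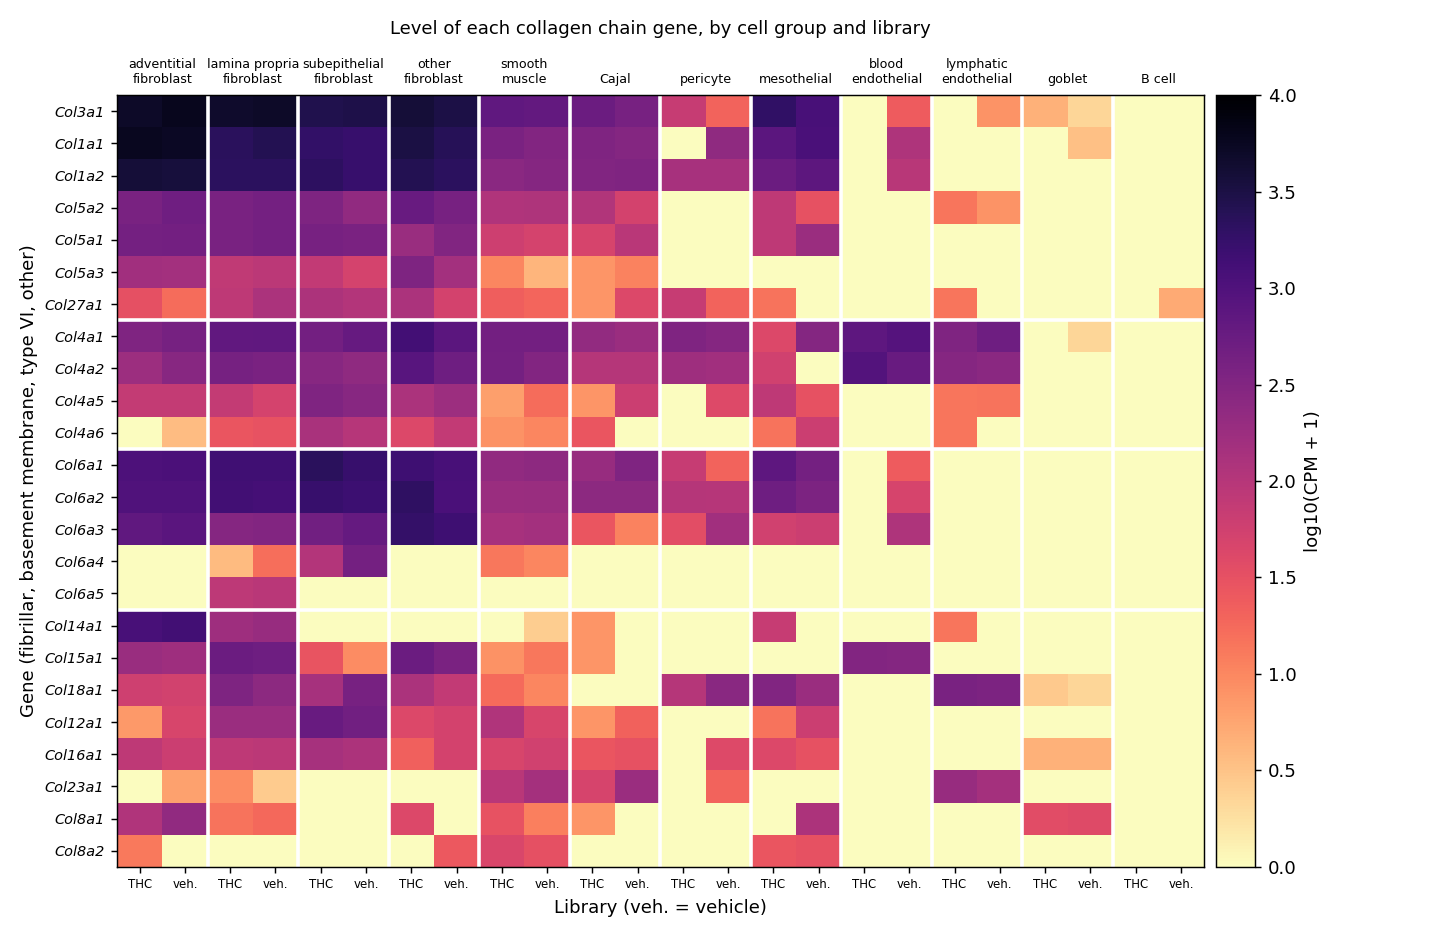
Level of the 24 collagen chain genes with 50 or more UMIs (rows, grouped as fibrillar, basement membrane, type VI and other chains) in each cell group (columns, THC left of vehicle), as log10(CPM + 1). The lightest colour is 0 UMIs. Col1a1, Col1a2 and Col3a1 are dark across all fibroblast columns, Col4a1 and Col4a2 also in endothelial and smooth muscle columns, and Col14a1, Col6a4, Col6a5, Col23a1 and Col8a2 in few columns.

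Of the basement membrane chains, Col4a1 and Col4a2, the partners of the common type IV network, were found in every stromal group of both libraries, apart from Col4a2 in the 2 vehicle mesothelial-like cells. In the remaining fibroblast group, of 7 and 5 cells, Col4a1 stood at 1314 CPM in THC cells and 770 CPM in vehicle cells and Col4a2 at 821 and 497 CPM. In blood endothelial-like cells Col4a1 stood at 710 CPM in THC cells and 882 CPM in vehicle cells and Col4a2 at 912 and 580 CPM, though only 4 and 7 cells gave these values. A single THC cell held 56.4% of the collagen UMIs of its group and a single vehicle cell 34.6%; without the THC cell Col4a2 was at 546 CPM, and thinned to 1000 UMIs per cell it was at 286 CPM in vehicle cells. Col4a1 reached 664 and 685 CPM in lamina propria fibroblasts, 450 and 445 CPM in smooth muscle-like cells, 439 and 584 CPM in subepithelial and 338 and 408 CPM in adventitial fibroblasts, and 336 and 492 CPM in lymphatic endothelial-like cells. Smooth muscle-like cells thus held more Col4a1 than Col1a1 in both libraries.

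Col4a5 and Col4a6, known as partners in another type IV network, had their highest level in the same cells. Subepithelial fibroblasts, which are known to lie under the epithelium, held 327 CPM of Col4a5 in THC cells and 280 CPM in vehicle cells (35 UMIs in each), and 131 and 96.0 CPM of Col4a6 (14 and 12 UMIs). Lamina propria fibroblasts held 73.7 and 48.2 CPM of Col4a5 and 27.3 and 29.3 CPM of Col4a6. Adventitial fibroblasts held 73.7 and 73.3 CPM of Col4a5, with 0 and 1 UMIs of Col4a6. The remaining pair of the type IV genes, Col4a3 and Col4a4, stayed below 50 UMIs.

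The type IV genes lie head to head in pairs, so that the partners start close to each other on opposite strands. In GENCODE M21 the starts of Col4a1 and Col4a2 on chromosome 8 are 21 bases apart, those of Col4a3 and Col4a4 on chromosome 1 are 72 bases apart, and those of Col4a6 and Col4a5 on chromosome X are 1309 bases apart. The sequences before the starts of Col4a6 and Col4a5 are shown because both genes were highest in the subepithelial cells. They come from RefSeq's GRCm38.p6 annotation, 5′ to 3′ on the strand of the gene, and lie at chrX:141474077-141474326 (− strand) and chrX:141475169-141475384 (+ strand, stopped before the first annotated exon base). The motifs searched, on both strands, were CCAAT (the letters of a CCAAT box), TATAAA (those of a TATA box) and GGGCGG (those of a GC box), and capitals mark their matches.
Col4a6: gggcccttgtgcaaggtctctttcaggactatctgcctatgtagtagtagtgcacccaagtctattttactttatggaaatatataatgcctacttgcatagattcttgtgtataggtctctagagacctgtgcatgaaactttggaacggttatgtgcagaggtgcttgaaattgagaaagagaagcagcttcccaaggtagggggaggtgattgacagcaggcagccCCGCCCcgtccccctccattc
Col4a5: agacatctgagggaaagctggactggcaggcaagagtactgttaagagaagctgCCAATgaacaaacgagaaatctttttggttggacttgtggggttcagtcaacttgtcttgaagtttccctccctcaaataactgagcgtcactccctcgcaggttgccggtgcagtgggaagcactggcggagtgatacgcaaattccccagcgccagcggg
The Col4a6 window holds 1 match, GGGCGG on the opposite strand, and the Col4a5 window 1 match, CCAAT. Over 250 bases before the start, CCAAT was found in 37.1% of the 35 collagen genes with such a window and in 37.5% of 27025 genes, TATAAA in 14.3% and 14.3%, and GGGCGG in 60.0% and 35.4%. A match is a stretch of letters and not a bound site.

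Type VI chains were abundant in all fibroblast groups, in an order that differed from that of type I. Col6a1 and Col6a2, which always enter the type VI trimer, were highest in subepithelial fibroblasts among the 3 larger subsets. Col6a1 stood there at 2263 CPM in THC cells and 1712 CPM in vehicle cells, against 1387 and 1412 CPM in lamina propria and 1044 and 1105 CPM in adventitial fibroblasts. Col6a2 stood at 1683 and 1512 CPM in subepithelial, 1371 and 1272 CPM in lamina propria and 976 and 998 CPM in adventitial fibroblasts. Col6a3, the long partner that completes the trimer, ranked differently: 682 and 786 CPM in adventitial, 468 and 616 CPM in subepithelial and 290 and 308 CPM in lamina propria fibroblasts. Its highest level was in the small remaining fibroblast group, at 1786 and 1441 CPM.

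Col6a4 and Col6a5, chains that can take the place of Col6a3 in the trimer, were each found mainly in a single subset. Col6a5 had 31 of its 32 UMIs in the THC library and all 53 in the vehicle library in lamina propria fibroblasts (84.7 and 91.2 CPM). Of Col6a4, 11 of 19 UMIs in the THC library and 53 of 77 in the vehicle library lay in subepithelial fibroblasts (103 and 424 CPM). The genes Col6a4, Col6a5 and Col6a6 are neighbours on the same strand of chromosome 9, and Col6a6 stayed below 50 UMIs.

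Among the other chains, Col14a1 and Col12a1, which bind to the surface of fibrils without forming them, were highest in different subsets. Col14a1 was an adventitial transcript, with 193 UMIs (1185 CPM) in THC cells and 518 UMIs (1356 CPM) in vehicle cells, in 25 of 25 and 49 of 51 cells. Lamina propria fibroblasts held 169 and 193 CPM, and no UMI was found in the subepithelial or remaining fibroblasts of either library. Col12a1, of the same class, was lowest among fibroblast groups where Col14a1 was highest. It had 62 and 58 UMIs (580 and 464 CPM) in subepithelial fibroblasts, 178 and 182 CPM in lamina propria fibroblasts, 112 and 45.1 CPM in smooth muscle-like cells and 6.14 and 44.5 CPM in adventitial fibroblasts. Col16a1 was low and more even, between 79.8 and 140 CPM in the 3 larger fibroblast subsets of the THC library and between 60.2 and 120 CPM in those of the vehicle library.

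Col15a1 and Col18a1, which sit at basement membranes and carry a tail that can be cut off as an inhibitor of vessel growth, shared the lamina propria fibroblasts but parted in the endothelium. Col15a1 stood at 524 and 496 CPM in lamina propria fibroblasts and at 304 and 302 CPM in blood endothelial-like cells (6 and 13 UMIs), with 0 UMIs in lymphatic endothelial-like cells of both libraries. Col18a1 stood at 350 and 253 CPM in lamina propria fibroblasts and at 388 and 356 CPM in lymphatic endothelial-like cells (30 and 52 UMIs), with 0 UMIs in blood endothelial-like cells of both. With 4 and 7 blood endothelial-like cells, the 0 of Col18a1 is read against only 19730 and 43083 UMIs. Subepithelial fibroblasts held 140 and 392 CPM of Col18a1 (15 and 49 UMIs), its highest level in the vehicle library. The remaining fibroblast group, of 7 and 5 cells, held 534 and 373 CPM of Col15a1, its highest level in the THC library.

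Col23a1, a chain anchored in the cell membrane, was found mainly outside the fibroblasts. Lymphatic endothelial-like cells held 194 CPM in the THC library and 144 CPM in the vehicle one, with 90.0 and 145 CPM in smooth muscle-like cells and 46.6 and 181 CPM in interstitial cell of Cajal-like cells, while all fibroblast-like cells together had 3 UMIs in each library. Within smooth muscle, 46 of 50 THC UMIs and 88 of 93 vehicle UMIs lay in the contractile cluster. Col8a2, a network-forming chain, had 24 of 28 and 20 of 22 UMIs in smooth muscle-like cells (43.2 and 31.1 CPM). Its partner Col8a1 lay mainly elsewhere. In smooth muscle-like cells it had 16 and 7 UMIs (28.8 and 10.9 CPM), 68.8% and 42.9% of them in a single cell. It stood at 111 and 223 CPM in adventitial fibroblasts and at 35.2 and 37.0 CPM in goblet-like cells, which are the mucus-secreting cells of the epithelium. The goblet UMIs, 20 and 32, came from 10 of 40 THC and 14 of 66 vehicle cells, at 30 and 50 collagen UMIs in all, so Col8a1 gave most of the few collagen UMIs of these cells. The goblet level moved with the processing: it was 16.9 CPM in THC cells with a mitochondrial limit of 5%, and in vehicle cells 6.38 CPM when both libraries were clustered separately and 90.9 CPM thinned to 1000 UMIs per cell. The epithelial-like cells, at medians of 20443.5 and 13675 UMIs per cell beside 12775.5 and 12229.5 in goblet-like cells, held 2 and 1 UMIs of Col8a1.

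Within a collagen type, the ratio of the chains shifted between subsets. The common type I collagen holds more Col1a1 than Col1a2 chains. In RNA, Col1a1 UMIs per Col1a2 UMI were 1.46 (1.32 to 1.62) in THC and 1.45 (1.36 to 1.56) in vehicle adventitial fibroblasts, 1.03 (0.94 to 1.14) and 1.23 (1.14 to 1.32) in lamina propria fibroblasts, and 0.914 (0.752 to 1.11) and 0.972 (0.799 to 1.18) in subepithelial fibroblasts. Col3a1 UMIs per Col1a1 UMI were lowest in adventitial fibroblasts among the larger subsets, with 0.876 (0.796 to 0.963) and 1.12 (1.05 to 1.19) there, 2.00 (1.84 to 2.18) and 1.87 (1.75 to 1.99) in lamina propria fibroblasts and 1.47 (1.23 to 1.77) and 1.81 (1.53 to 2.16) in subepithelial fibroblasts.

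Over all fibroblast-like cells, the type VI partners Col6a1 and Col6a2 stood near 1 to 1, at 1.06 (0.964 to 1.16) in THC cells and 1.11 (1.03 to 1.2) in vehicle cells. By subset this ratio was 1.01 and 1.11 in lamina propria and 1.07 and 1.11 in adventitial fibroblasts. It was 1.34 (1.10 to 1.64) and 1.13 (0.927 to 1.38) in subepithelial fibroblasts and 0.727 (0.529 to 0.995) and 1.07 (0.695 to 1.64) in the remaining group. Smooth muscle-like cells stood at 1.25 (0.953 to 1.64) and 1.30 (1.02 to 1.66). Col6a1 per Col6a3 varied more between subsets: it was 4.79 (3.88 to 5.97) and 4.58 (3.89 to 5.42) in lamina propria fibroblasts, 1.53 (1.2 to 1.96) and 1.41 (1.21 to 1.64) in adventitial fibroblasts, and 0.828 and 0.828 in the remaining group. In subepithelial fibroblasts it was 4.84 (3.56 to 6.70) in THC cells and 2.78 (2.13 to 3.65) in vehicle cells, intervals that overlap narrowly. Col4a1 per Col4a2 was 1.66 (1.41 to 1.95) and 1.78 (1.56 to 2.03) in fibroblast-like cells, and 1.05 (0.880 to 1.27) and 1.42 (1.18 to 1.70) in smooth muscle-like cells. The type V chains Col5a2 and Col5a1 stood at 1 and 1 in fibroblast-like cells, and at 1.91 (1.23 to 3) and 2.42 (1.57 to 3.80) in smooth muscle-like cells.

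**Figure D3:**
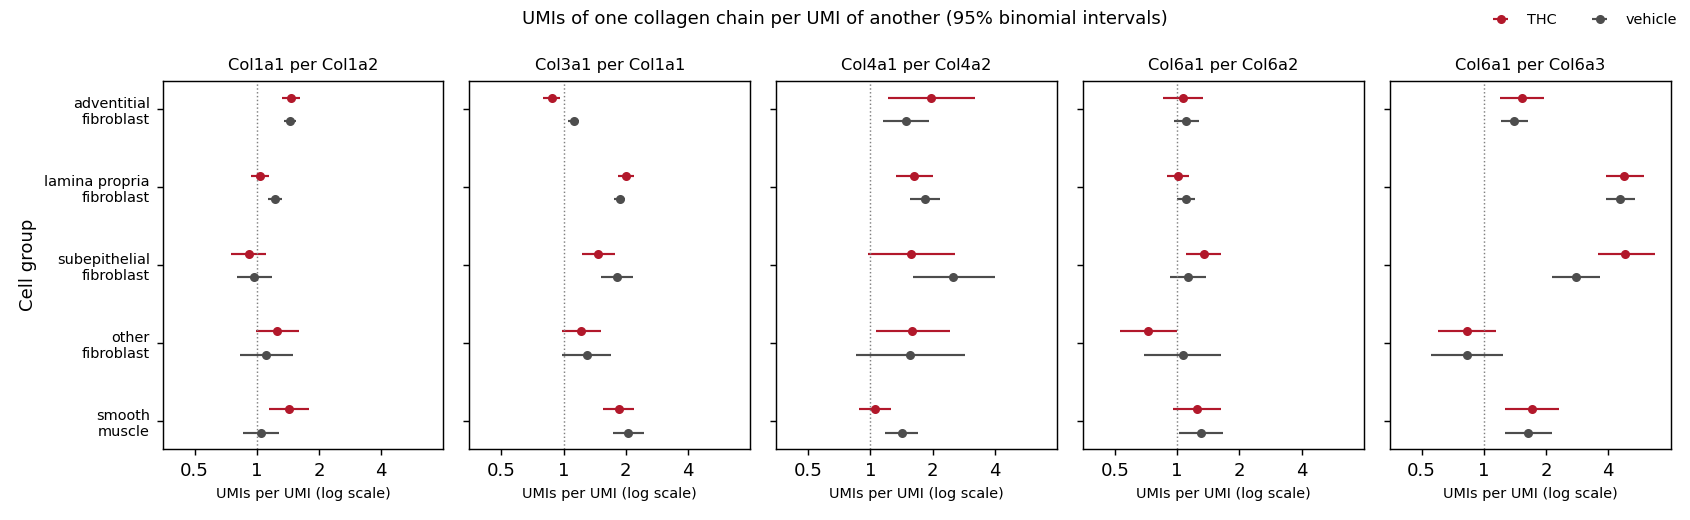
UMIs of a collagen chain per UMI of another (horizontal axis, log scale) in 4 fibroblast subsets and smooth muscle-like cells of the THC (red) and vehicle (grey) library, with exact binomial 95% intervals; the dotted line is 1. Col1a1 per Col1a2 is above 1 in adventitial fibroblasts in both libraries, and Col6a1 per Col6a3 is over 4 in lamina propria and at 0.828 in the remaining fibroblasts.

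Chains also varied together from cell to cell. Across the adventitial fibroblasts, Col1a1 and Col1a2 had a Pearson correlation of 0.83 over 25 THC cells and 0.81 over 51 vehicle cells on log-scaled values. Across lamina propria fibroblasts it was 0.72 over 48 cells and 0.70 over 80 cells. Col6a1 and Col6a2 stood at 0.59 and 0.62 in lamina propria fibroblasts, and Col4a1 and Col4a2, with fewer UMIs per cell, at 0.38 and 0.25. The cells of a library share its preparation and differ in depth, so these values are a description.

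Between the treatments, the collagen share of fibroblast-like cells was 1.69% (1.66 to 1.72) in THC cells and 1.76% (1.74 to 1.79) in vehicle cells, a log2 ratio of −0.06 (−0.10 to −0.03). The ratio was 0.0015 after each cell was thinned to 1000 UMIs, so its direction was not kept. Fibrillar chains stood at 1.10% and 1.2% (log2 ratio −0.12, −0.16 to −0.08), type VI chains at 0.341% and 0.318% (0.10, 0.02 to 0.17), basement membrane chains at 0.112% and 0.103% (0.12, −0.02 to 0.25) and the other chains at 0.131% and 0.143% (−0.13, −0.25 to −0.01). With the 3 larger subsets and the remaining group given the same weights in both libraries, the ratio was −0.02. The fibroblast-like cells of the THC library held 25 adventitial cells of 93 and those of the vehicle library 51 of 156. Within subsets the ratio was −0.053 (−0.101 to −0.006) in lamina propria and −0.055 (−0.114 to 0.003) in adventitial fibroblasts. In subepithelial fibroblasts it was 0.070 (−0.030 to 0.171). By chain group the directions differed between subsets. In lamina propria, adventitial and subepithelial fibroblasts in turn, fibrillar chains stood at −0.11 (−0.16 to −0.05), −0.02 and 0.11. Type VI chains stood at 0.02, −0.09 and 0.08. Basement membrane chains stood at 0.05, −0.37 (−0.71 to −0.03) and −0.02, and the other chains at 0.11, −0.23 (−0.43 to −0.02) and −0.17. The intervals not given hold 0. No cause of these ratios was tested.

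Of the 44 chains, 22 reached 50 UMIs over both libraries in fibroblast-like cells. A chain was called when its CPM ratio was past 1.5-fold. None of the 22 was higher in the THC library by that rule, where 4.83% of the 4558 genes with as many UMIs were, and 2 were lower, where 4.85% of those genes were (9.68% in either direction). The median log2 ratio of the 22 chains was 0.02, beside 0.03 over the 4558 genes. The fibrillar chains lay between −0.19 and 0.13, with Col3a1 at −0.19 (−0.26 to −0.13), Col1a1 at −0.13 (−0.21 to −0.06) and Col1a2 at 0.01 (−0.08 to 0.10). The 4 basement membrane chains measured lay between 0.03 and 0.43, each with an interval that holds 0. Col6a2 stood at 0.19 (0.07 to 0.31) and Col6a1 at 0.12.

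The 2 chains past 1.5-fold were Col6a4 and Col8a1. Col6a4 had 12 UMIs in THC fibroblast-like cells and 62 in vehicle ones, 17.5 and 55.0 CPM, a log2 ratio of −1.65 (−2.68 to −0.74). Col8a1 had 25 and 95 UMIs, 36.5 and 84.2 CPM, a log2 ratio of −1.21 (−1.90 to −0.56). Col14a1, with 255 UMIs in THC cells and 630 in vehicle cells, stood just inside the limit at −0.58 (−0.80 to −0.37). It was past the limit, giving 3 lower chains, with a mitochondrial limit of 20% (−0.61), at Leiden resolution 0.5 (−0.66), with TMM scaling (−0.61) and with the mean of per-cell CPM (−0.65). With the subsets weighted alike in both libraries, the ratios were −2.10 for Col6a4, −0.84 for Col8a1 and −0.19 for Col14a1.

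**Figure D4:**
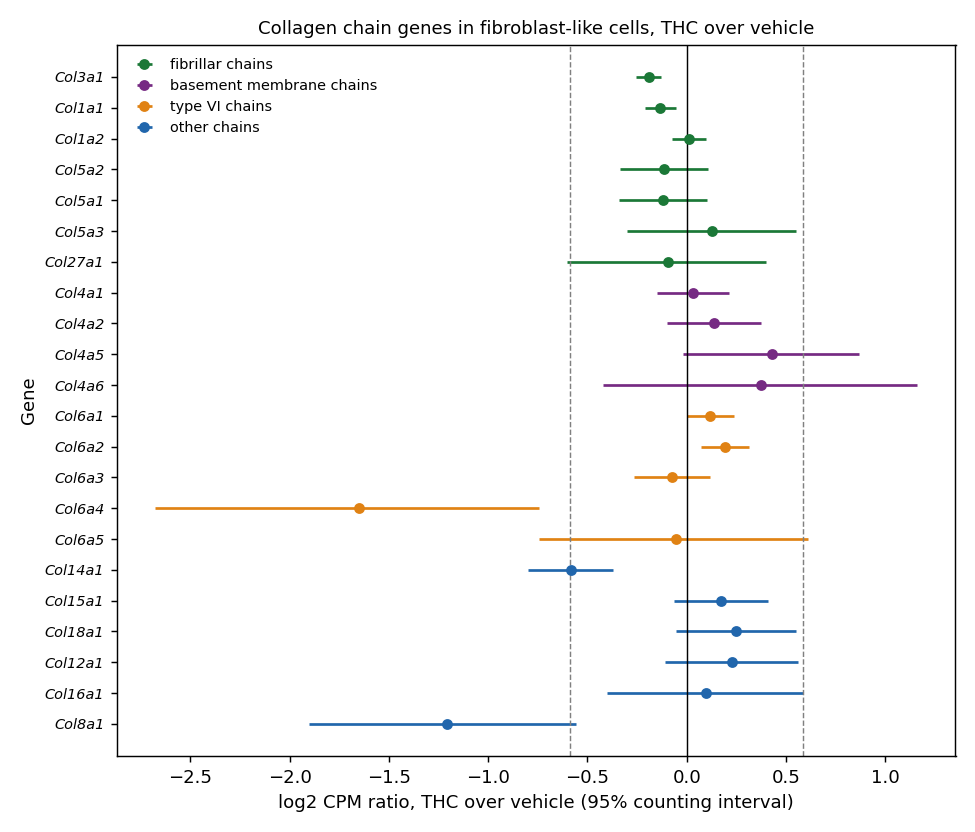
log2 CPM ratio, THC over vehicle, of the 22 collagen chain genes with 50 or more UMIs in fibroblast-like cells, with exact 95% counting intervals, coloured by group; dashed lines mark 1.5-fold. Col6a4 and Col8a1 lie left of the dashed line, Col14a1 lies on it at −0.58, and the other 19 lie inside.

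Inside the adventitial subset, Col14a1 was at −0.19 (−0.44 to 0.05), well inside the limit. Col8a1 still differed there, with 18 UMIs in 10 of 25 THC cells and 85 UMIs in 25 of 51 vehicle cells (−1.01, −1.83 to −0.26). After each cell was thinned to 1000 UMIs, 8% of THC and 17.6% of vehicle adventitial cells held Col8a1, with intervals that overlap. In this subset 14 chains were measured, none was higher and 2 were lower in the THC library, beside 6.72% and 11.1% of 1399 genes. The second was Col4a2, with 28 and 105 UMIs (−0.68, −1.33 to −0.06), which was at −0.57, inside the limit, without the richest cell of each library.

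Col6a4 belonged to the subepithelial subset. Its UMIs there numbered 11 in 3 of 13 THC cells and 53 in 13 of 20 vehicle cells, 103 and 424 CPM, a log2 ratio of −2.04 (−3.13 to −1.09). A single cell held 45.5% of the THC UMIs and another 30.2% of the vehicle UMIs, and without each of these the ratio was −2.42. Thinned to 1000 UMIs, the gene was found in 7.69% of THC cells and 35% of vehicle cells, with intervals of 0.195% to 36.0% and 15.4% to 59.2%. Col18a1 was also lower in THC cells of this subset, with 15 and 49 UMIs (−1.48, −2.42 to −0.62), and a single vehicle cell held 38.8% of its UMIs. Col5a2 was higher there, with 37 and 28 UMIs (0.63, −0.12 to 1.39). These 3 were the calls among 14 chains measured, 1 higher and 2 lower. In this subset 15.6% of 630 genes were higher and 13.7% lower by the same limits. The share of chains was near that of all genes for lower calls and smaller for higher calls.

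In lamina propria fibroblasts 19 chains were measured, with 1 higher and 1 lower, beside 6.34% and 5.45% of 2494 genes. Col4a5 had 27 and 28 UMIs (0.61, −0.20 to 1.43) and Col27a1 30 and 74 UMIs (−0.64, −1.30 to −0.01). Both lie close to the limit of 1.5-fold, and the interval of Col4a5 holds 0. Without the richest cell of each library Col4a5 was at 0.57, inside the limit. Col3a1 in this subset stood at −0.10 and Col1a1 at −0.20.

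**Figure D5:**
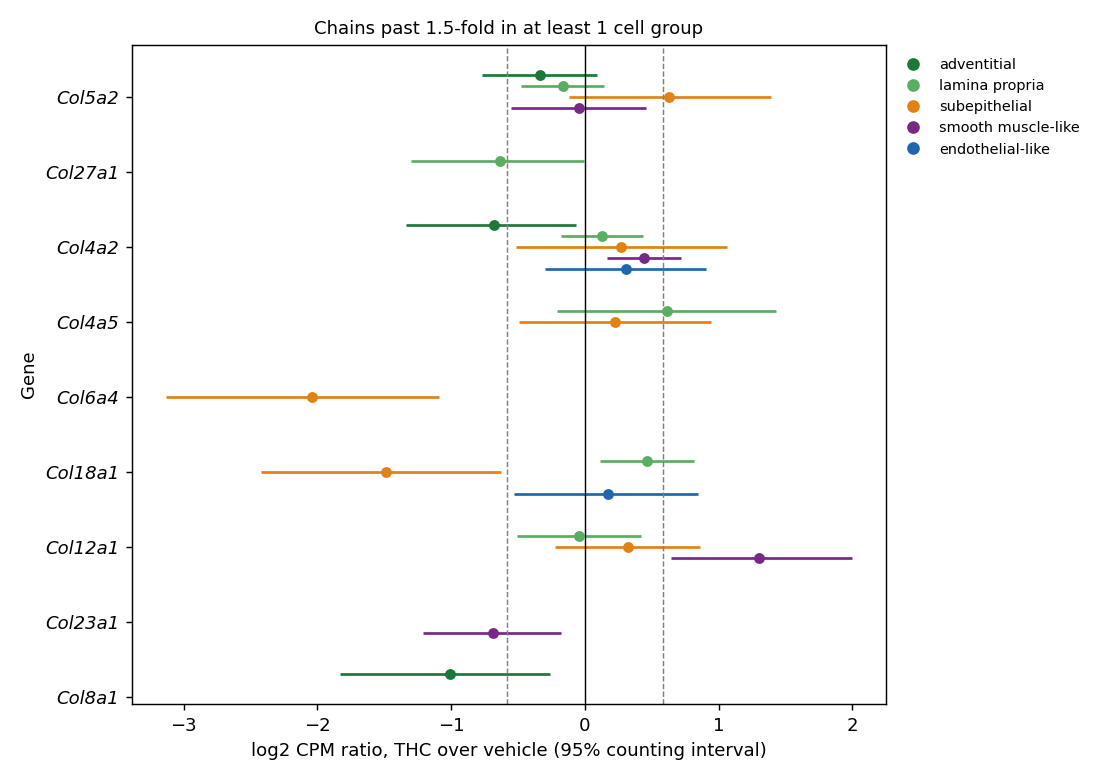
log2 CPM ratio, THC over vehicle, with exact 95% counting intervals, of the chains past 1.5-fold (dashed lines) in at least 1 of 5 cell groups; points show every group where the chain had 50 or more UMIs. Col6a4 and Col18a1 are lower in subepithelial fibroblasts, Col8a1 in adventitial fibroblasts, and Col12a1 is higher in smooth muscle-like cells.

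In smooth muscle-like cells the collagen share was 0.332% in THC cells and 0.311% in vehicle cells (log2 ratio 0.09, 0.0028 to 0.19), and the ratio was −0.21 with a mitochondrial limit of 5%. Of 13 chains measured, 1 was higher and 1 lower, beside 2.97% and 9.10% of 3164 genes. Col12a1, which binds to fibrils and is known from tissue under mechanical load, had 62 UMIs in 25 of 41 THC cells and 29 UMIs in 22 of 55 vehicle cells, 112 and 45.1 CPM (1.31, 0.65 to 2.00). Both clusters of this class showed the direction, with 169 and 86.8 CPM in the Hhip-led and 98.9 and 32.5 CPM in the contractile cluster. A single cell held 17.7% of the THC UMIs, and the ratio without each library's richest cell was 1.25. With a mitochondrial limit of 5%, which left 15 THC and 19 vehicle cells, it was 0.42, inside the limit. Col23a1 was at 50 and 93 UMIs (−0.69, −1.21 to −0.17), with 26.0% and 32.3% of them in a single cell of each library, and −0.56 without these cells, inside the limit. Its ratio was 0.16 thinned to 1000 UMIs per cell, −0.15 at Leiden resolution 2 and −1.34 with a mitochondrial limit of 5%. Col4a2 stood at 0.44 (0.16 to 0.72) beside a Col4a1 of 0.02 (−0.23 to 0.27). In these cells the median log2 ratio of all 3164 genes was −0.09.

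In endothelial-like cells, 17 of the THC and 32 of the vehicle library, the collagen share was 0.142% and 0.154% (−0.12, −0.42 to 0.18). The 3 chains measured, Col4a1, Col4a2 and Col18a1, gave no call in either direction, where 7.11% of 802 genes were higher and 9.23% lower. Their log2 ratios were −0.50 (−1.06 to 0.04), 0.31 (−0.30 to 0.90) and 0.17 (−0.53 to 0.85). Each of these intervals reaches past 1.5-fold, so at this depth a difference of that size remains possible.

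Genes that act on collagens were read in the same fibroblast-like cells, from 6 lists. Of those for modification and folding inside the cell, 16 of 19 were measured, 1 was higher and none lower, with a median of 0.03. Serpinh1, the chaperone of procollagen, stood at 2439 and 2438 CPM (0.00, −0.09 to 0.09) and Ppib, a proline isomerase of the same compartment, at 694 and 690 CPM (0.01). Plod1, a lysyl hydroxylase of collagen chains, was higher, at 153 and 96.6 CPM (0.67, 0.27 to 1.07). Of the genes for processing and crosslinking outside the cell 7 of 12 were measured, and none was called, with a median of −0.06. Pcolce, which enhances procollagen cleavage, stood at 0.26 (0.12 to 0.40) and the crosslinking enzyme Loxl1 at 0.12.

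Of the genes for collagen breakdown and its inhibitors 7 of 13 were measured and none was called (median 0.09), with Timp2, a metalloprotease inhibitor, at −0.08 and Mmp2, a gelatinase, at 0.09. Of 7 collagen receptors 3 were measured, with 1 lower and a median of −0.49. Itga11, an integrin chain that binds fibrillar collagen, was lower with 27 and 67 UMIs (−0.59, −1.29 to 0.07), the receptor kinase Ddr2 stood at −0.49 (−0.78 to −0.21) and Itgb1 at 0.11. Of the basement membrane partners 7 of 14 were measured and none was called (median −0.02), with the laminin chains Lamb1 at 0.16 and Lamc1 at −0.02. Of the TGF-beta axis 10 of 11 were measured and 2 were lower, with a median of −0.12. Ctgf, a matrix protein induced by TGF-beta, had 66 and 223 UMIs (−1.04, −1.46 to −0.63). It is among the leading genes of a lamina propria cluster of 5 THC and 14 vehicle cells. Over all genes of the TGF-beta list, the 5 measured in adventitial fibroblasts ran from −3.81 to 0.63, with a median of 0.06. The 8 measured in lamina propria fibroblasts ran from −0.84 to 1.01, with a median of 0.25. Both medians lie above 0, unlike the −0.12 over all fibroblast-like cells. The part of any cluster or subset in the Ctgf ratio was not tested. The ligand Tgfb3 had 19 and 47 (−0.59, −1.44 to 0.21), while the receptor Tgfbr2 stood at 0.30 (0.06 to 0.55). Over the other processing settings tried, the medians of 5 of the 6 lists changed sign, and that of the collagen receptors, between −0.71 and −0.19, did not. Over the lists, 1 gene was higher and 3 were lower of 50 measured, beside the same 4.83% and 4.85% of all genes.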

How the data were processed

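Raw UMI counts per gene and barcode were deposited by the authors for 1 THC and 1 vehicle library, made with Cell Ranger 3.0.2 per the file headers. Per the submitters' processing notes bcl2fastq and Seurat were also used; no header or label names the genome build. The THC file holds all 737280 barcodes, 106628 of them with a UMI, and the vehicle file 973 barcodes already called as cells, with 502 or more UMIs. The deposited gene and barcode tables hold other text with no measurement.

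From these counts, barcodes with 1000 or more UMIs (654 THC and 926 vehicle), 200 or more genes (628 and 911) and under 10% mitochondrial UMIs were kept; the last step removed 36.9% and 30.8%. Scrublet, within scanpy 1.11.5, marked 1 and 2 cells as doublets, which were removed. Both libraries were clustered together without the collagen genes (2000 variable genes, 30 components, 15 neighbours, Leiden resolution 1), into 23 clusters. Names came from 21 lists of 132 marker genes, where at least 3 markers were found in 10% or more of the cells and at least 1 log2 unit higher; this scoring rule was written after the data were seen. Median genes per cell were 2688 and 2380.5, and the kept cells held 4407754 and 5663636 UMIs.

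UMIs were summed per library and cell group. Ratios are log2 of THC over vehicle CPM, called past 1.5-fold for genes with 50 or more UMIs over both libraries. Intervals are exact 95% Poisson or binomial ones (scipy 1.17.1); PCR duplicates were already collapsed by UMI. Every collagen chain with 50 or more UMIs is named; of each partner list, the 2 genes with most UMIs and those called are named, apart from 1 gene that is not reported here. The members and lists were chosen with earlier results of these data known. Scaling by TMM used edgeR 4.0.16 in R 4.3.3 as an alternative. The scripts were tested on simulated data. Alternatives were other UMI, mitochondrial and gene minimums, clusterings, scalings, thinning, doublets kept, cells left out and a fixed mix of subsets.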

Additional observations from a re-analysis of the deposited data

Results flagged for a closer look

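The chains below had counting intervals above 0 in 1 cell group and below 0 in another. The differences were not tested, since each group has 1 library per treatment. How often other genes do the same was not counted, and the intervals leave out the spread between cells. Col1a1 stood at 0.12 (0.01 to 0.24) in adventitial and −0.20 (−0.33 to −0.08) in lamina propria fibroblasts, log2 THC over vehicle, a difference of 0.33. Col4a2 stood at 0.44 (0.16 to 0.72) in smooth muscle-like cells and −0.68 (−1.33 to −0.06) in adventitial fibroblasts, a difference of 1.12. Col18a1 stood at 0.47 (0.11 to 0.82) in lamina propria and −1.48 (−2.42 to −0.62) in subepithelial fibroblasts, a difference of 1.95.

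The THC barcodes with 1 to 100 UMIs, which no comparison uses, held 550 CPM of collagen, beside 3.02 CPM in the lymphoid cells of that library; the vehicle file starts at 502 UMIs, so its free RNA was not analysed here.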

How the results depend on the processing

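The log2 ratio of the collagen share in fibroblast-like cells (−0.06) was −0.027 with a mitochondrial limit of 5%, −0.13 at Leiden resolution 0.5, −0.21 with each library clustered on its own, 0.0015 with each cell thinned to 1000 UMIs and −0.019 with the same mix of subsets. The count of chains past 1.5-fold (2) was 7 (3 higher, 4 lower) with each library clustered on its own, 0 of 13 measured after thinning, and 10 (7 higher, 3 lower, of 33) with no minimum beyond 1 UMI. Under its own clustering the THC library had 61 fibroblast-like cells, none of them adventitial, and the vehicle library 143, 43 of them adventitial; Col14a1 then stood at −2.18. In smooth muscle-like cells the share's ratio (0.09) was 0.29 with 500 UMIs, −0.21 with a mitochondrial limit of 5%, −0.078 with each library clustered on its own, 0.20 with TMM scaling and 0.41 after thinning. The ratio of Col23a1 there (−0.69) was 0.16 after thinning, −0.15 at Leiden resolution 2 and −1.34 with a mitochondrial limit of 5%. The causes were not tested. The endothelial-like ratio ran from −0.22 with TMM scaling to 0.03 with the mean of per-cell CPM. Leaving out each gene's richest cell, chosen after seeing the data, gave 3 chains lower, as did a mitochondrial limit of 20%, Leiden resolution 0.5, TMM scaling and the mean of per-cell CPM; Col14a1 was the third. Of 321 single ratios 298 stayed inside their counting interval, as did 548 of 606 levels and 96 of 104 chain ratios. These counts cannot be read as a rate of stability. Leiden resolution 2, collagen genes allowed in clustering and doublets kept each returned the main fibroblast-like share ratio of −0.064. Values that could not be computed were not counted. Separate clustering gave no THC adventitial levels, and Col3a1 there has 12 settings, beside 13 for Col6a1 in THC subepithelial cells. The list medians ran from −0.12 to 0.16 (modification), −0.17 to 0.13 (processing), −0.02 to 0.17 (breakdown), −0.18 to 0.03 (basement membrane partners), −0.33 to 0.32 (TGF-beta axis) and −0.71 to −0.19 (receptors). No paired analysis was possible because each treatment has 1 library.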
